A study of Homo sapiens with 4 samples.

Results

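The mitochondrial ribosomal protein genes are nuclear genes whose symbols begin with MRPL (named for the large subunit) or MRPS (named for the small subunit) followed by a digit. A total of 77 such symbols were listed in both deposited expression tables, 48 MRPL and 29 MRPS, out of 19732 symbols in the A549 table. MRPL58 was listed in 1 table only and is not a member. Each of the 77 genes was read in 2 libraries of A549, an established human lung adenocarcinoma cell line. One library came from a control culture and the other from a culture with RBM4 knocked down. The protein RBM4 binds RNA and takes part in splicing and translation, and the series by its title concerns senescence. The labels name no other allele or agent, and they do not say whether the cells were a clone. For the means of knockdown they give the letters sh, in the title A549sh, which may stand for short hairpin RNA. Samples of H1299, a further lung cancer line, were not analysed here.

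Mitochondria carry their own ribosomes, which translate the few proteins encoded by the mitochondrial genome, all of them subunits of the respiratory chain and ATP synthase. The ribosomal RNA comes from the mitochondrial genome, whereas every ribosomal protein is encoded in the nucleus, made in the cytosol and imported. Some of these proteins descend from bacterial ribosomal proteins and others are found only in mitochondria. Each ribosome holds most of them in a single copy, so their genes are often studied as a set.

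Each value is FPKM, fragments scaled to transcript length and library size, summed over the protein-coding transcripts of a gene. Levels can thus be compared only roughly between genes, as the error of the transcript estimates is unknown. Between libraries they can be compared only relative to the rest of each library. A difference is the log2 of (knockdown + 1) / (control + 1), both in FPKM, and a negative one means a lower value after knockdown. Where 2 levels are given together, the control comes first. Each group had a single library, so no test was possible and every difference compares 2 libraries, not 2 conditions with a known spread. The columns were matched to the samples by name only. RBM4 itself had 59.4 and 30.6 FPKM (-0.93). The epithelial markers KRT7, KRT8, KRT18, KRT19, CDH1 and EPCAM were all at 1 FPKM or more in both libraries, with a summed level of 5419 and 4321 FPKM. Among them KRT8 had 1646 and 888.0 FPKM and KRT18 had 1853 and 912.4 FPKM, whereas KRT7 had 1880 and 2446 FPKM and KRT19 had 29.6 and 64.9 FPKM. Of 6 alveolar type II markers only ABCA3 was, and the surfactant genes SFTPB and SFTPA1 were at 0. Of 6 fibroblast markers, COL1A1 and THY1 reached 1 FPKM, with a summed level of 8.39 and 35.7 FPKM over the list and DCN at 0. Of 5 blood and immune markers, CD14 and CD68 did, with a summed level of 9.06 and 30.2 FPKM and CD3E at 0. The 3 endothelial markers were below 1 FPKM. Total FPKM was 671529 and 622366, and transcripts of the mitochondrial genome held 18.6% and 21.7% of it.

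Nearly all mitochondrial ribosomal protein genes had a lower value in the knockdown library, each by a modest amount. The difference was below 0 for 75 of the 77 genes, whereas it was below 0 for 53.4% of the 12230 genes at 1 FPKM or more in either library. The median difference was -0.39, with quartiles of -0.51 and -0.25, beside a median of -0.04 over all genes. Together the 77 genes summed to 3987 and 3104 FPKM, so the knockdown sum was 77.8% of the control sum. Their share of all FPKM was 0.594% and 0.499%, and of FPKM from nuclear genes 0.730% and 0.637%. All 77 passed the minimum of 1 FPKM. In bulk RNA, fewer cells of a kind and less RNA per cell cannot be told apart.

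The size of the difference was small for single genes and alike across them. No member reached 2-fold in either direction, where 2.25% of all genes were 2-fold lower and 4.96% were 2-fold higher. At 1.5-fold, 12 of the 77 members were lower and none was higher, against 9.83% and 12.7% of all genes. Among genes at 10 FPKM or more, these shares were 11.9% and 9.53%. The robust standard deviation of the difference was 0.19 over the members, 0.45 over all genes and 0.42 over the 7637 genes at 10 FPKM or more. Genes at that level had a median of -0.10, and 59.8% of them were below 0. As a description, the difference was nearly unrelated to a member's mean level (Pearson r = 0.09 over 77 genes) and to the length of its most abundant transcript (r = -0.11). All 77 points of these correlations share the same 2 libraries.

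**Figure D1:**
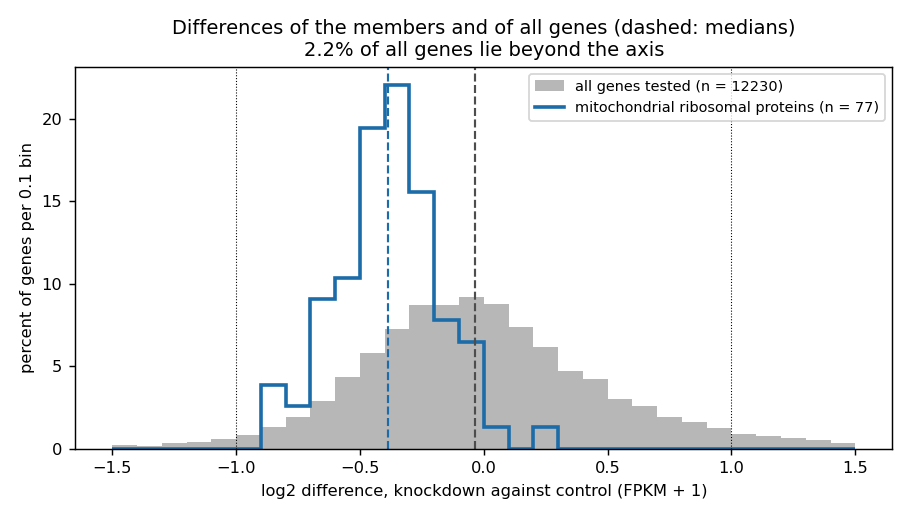
Percent of genes per bin of 0.1 in the log2 difference between knockdown and control, for the 77 members (blue line) and all 12230 genes tested (grey); dashed lines are the medians, -0.39 and -0.04, and dotted lines mark 2-fold. The members form a narrow peak left of 0 that stays within 2-fold.

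The size of this shift depended on the scale, since FPKM is relative to the rest of the library. Rescaling both libraries to the same total moved the median of all genes to 0.06 and that of the members to -0.29. Then 70 members were below 0, beside 44.0% of all genes. Leaving out the mitochondrial genome before rescaling moved the medians to 0.11 and -0.24, with 67 members below 0, beside 39.7% of all genes. On either rescaled basis 5 of the 77 members, not 12, were 1.5-fold lower, which is near the share over all genes. That share was 6.72% at the same total and 5.64% without the mitochondrial genome. At the same total the 5 members were MRPL12, MRPL39, MRPL44, MRPL53 and MRPS10. The members' median minus that of all genes was -0.35 on each of these 3 scales. Rescaling multiplies every gene of a library by the same factor, so this gap could hardly change and is no check on the shift. The 10 members above 0 on the last scale were MRPL13, MRPL14, MRPL21, MRPL30, MRPL33, MRPL45, MRPL49, MRPS14, MRPS21 and MRPS28. No direction can be given for 8 of these, all but MRPL14 and MRPL33, since their sign changed with the scale. Both rescalings raised the differences, so MRPL14 and MRPL33, already above 0, could not change sign. Their direction is thus not established by this either. The part of the marker levels and of total FPKM in the shift was not tested.

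**Figure D2:**
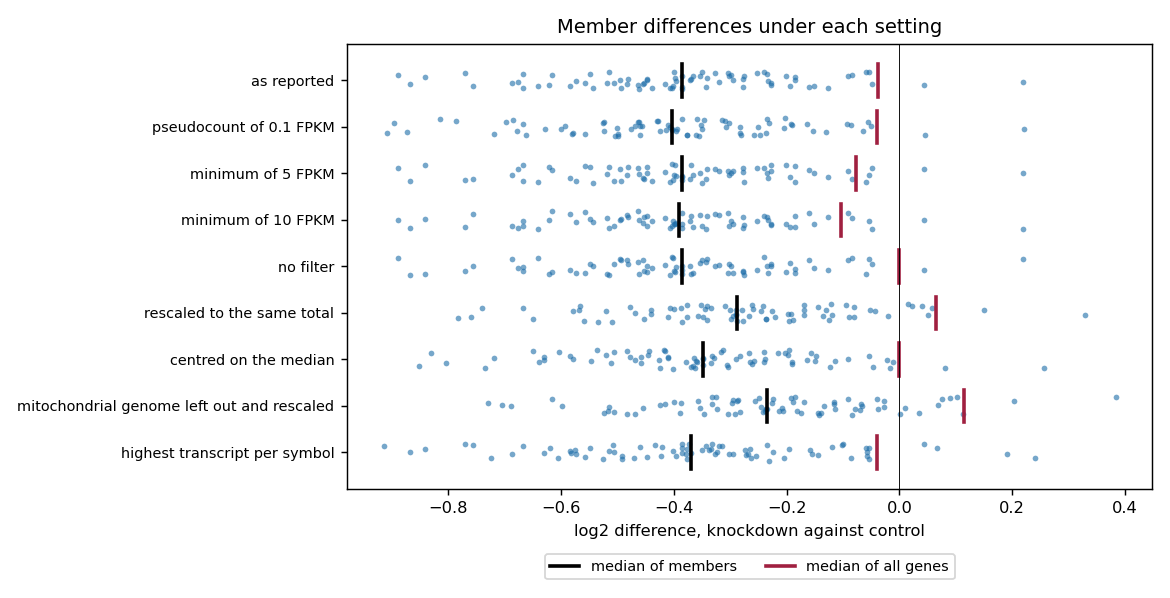
Log2 difference between knockdown and control for each member (blue points) under the reported setting and 8 alternatives, with the median of the members (black) and of all genes (red). Both medians move together under the rescalings, as a single factor per library requires, from -0.39 and -0.04 to -0.24 and 0.11.

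By level, the members ran from 8.99 to 311 FPKM in the control library (median 42.0) and from 7.74 to 362 FPKM in the knockdown library (median 30.9). The medians of all genes tested were 12.8 and 12.6 FPKM. At 100 FPKM or more there were 6 control values and 2 knockdown values among the members. The order of the members was much the same in both libraries (across genes, which are not replicates, Pearson r = 0.976 and Spearman rho = 0.970 on log2(FPKM + 1), beside r = 0.952 over all genes). MRPL33, MRPL51 and MRPL12 held the first 3 places in both. MRPL51, a mitochondrion-specific large-subunit protein, had 286 and 207 FPKM (-0.46). The small-subunit genes MRPS24, MRPS34 and MRPS12 came next. MRPS24 had 111 and 76.9 FPKM (-0.52), MRPS34 had 111 and 83.6 FPKM (-0.40), and MRPS12 had 105 and 74.4 FPKM (-0.49). The lowest in the control library were MRPS14 at 8.99 and 8.60 FPKM, MRPL50 at 10.4 and 7.74 FPKM, MRPS31 at 12.2 and 9.60 FPKM, MRPL1 at 13.1 and 10.2 FPKM, and MRPS25 at 15.2 and 9.56 FPKM. Both highly and weakly expressed members were thus among those with lower values.

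**Figure D3:**
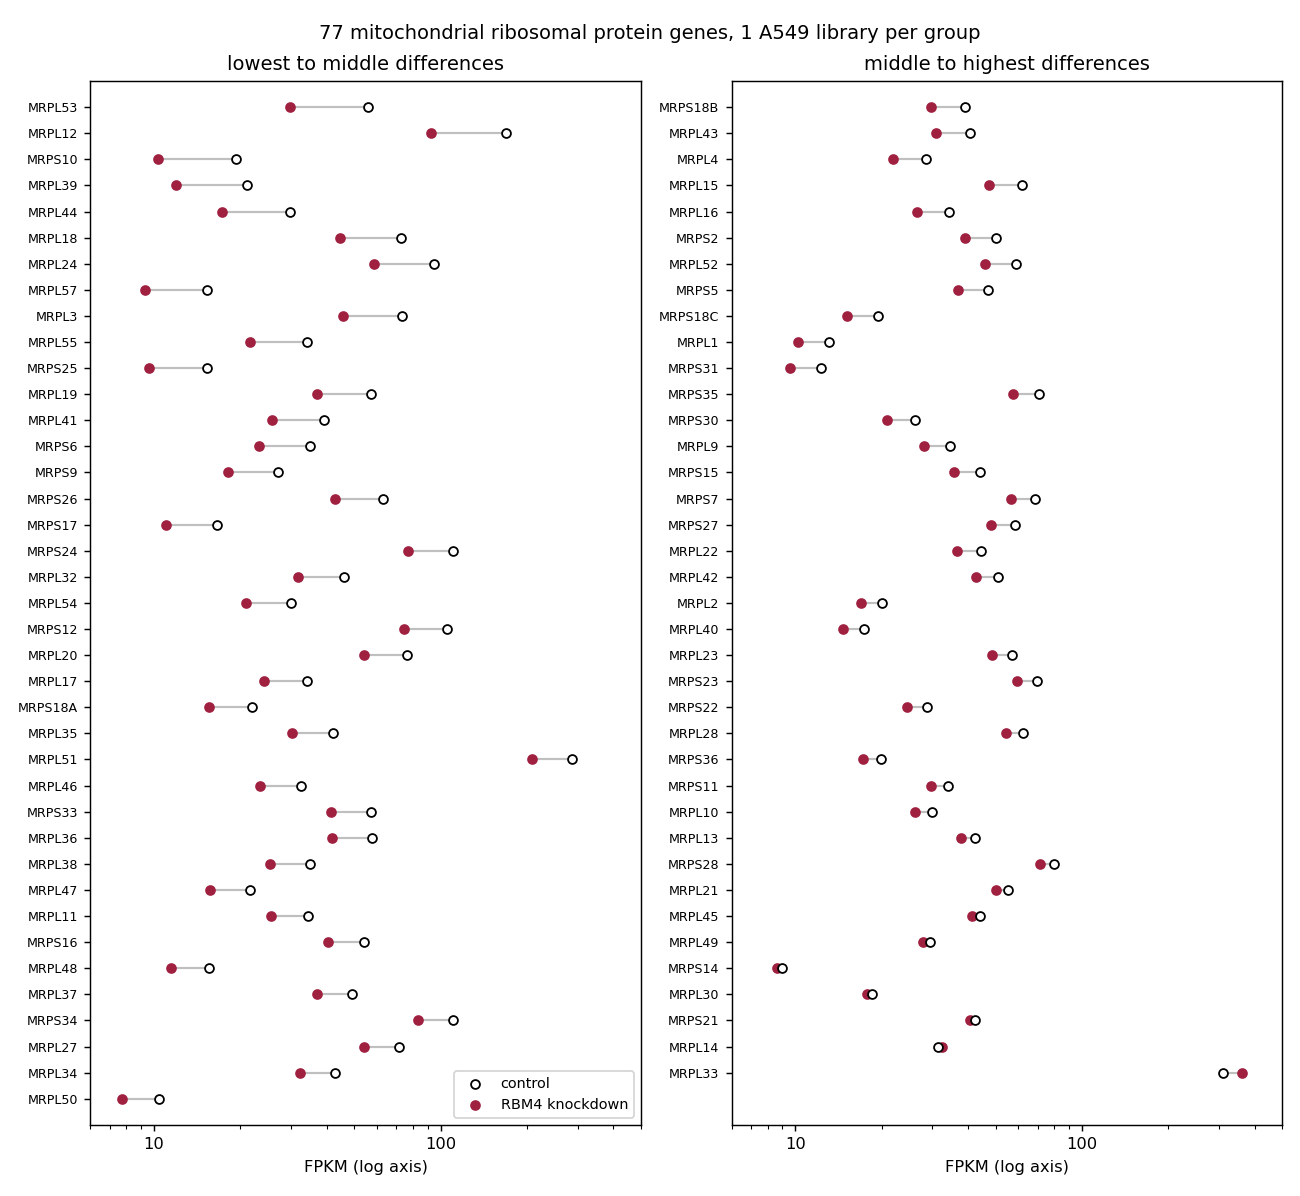
FPKM (log axis) of each of the 77 members in the control library (open circles) and the RBM4 knockdown library (filled circles), ordered by difference from MRPL53 (top left) to MRPL33 (bottom right). The filled circle lies to the left for 75 members, and the level runs from 7.74 to 362 FPKM.

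MRPL53 and MRPL12, from the stalk that recruits translation factors, had the lowest differences of all members. MRPL53 (ENSG00000204822, chromosome 2, 74471958 to 74473322, minus strand, hg38) had 55.9 and 29.7 FPKM, 53.2% of the control (-0.89). MRPL12 (ENSG00000262814, chromosome 17, 81703357 to 81707526, plus strand), the flexible stalk protein that also binds the mitochondrial RNA polymerase, had 169 and 92.4 FPKM (-0.87). Both share exons on the same strand with another annotated gene, CCDC142 and AC139530.2, so their values are uncertain where reads could be counted for either gene. The same holds for 16 members in all, MRPL33, MRPS6, MRPS17 and MRPS24 among them, and 34 members have a named pseudogene. Another 25 overlap an exon only on the opposite strand, which matters if strand was not used in the counting. The other stalk genes were closer to 0. MRPL54 had 30.1 and 20.9 FPKM (-0.51), MRPL11, at the stalk base, had 34.3 and 25.5 FPKM (-0.41), and MRPL10, which anchors MRPL12, had 29.9 and 26.2 FPKM (-0.19). The 5 stalk genes had a median of -0.51.

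The central protuberance, where the large subunit meets the small one and the transfer RNAs, had a median of -0.45 over 7 genes, all below 0. MRPL18 had 72.5 and 44.7 FPKM (-0.69) and MRPL55 had 34.2 and 21.6 FPKM (-0.64). MRPL46 had 32.6 and 23.5 FPKM (-0.45) and MRPL38 had 35.0 and 25.4 FPKM (-0.45). MRPL48 had 15.5 and 11.5 FPKM (-0.40), MRPL27 had 71.4 and 54.0 FPKM (-0.40), and MRPL40 had 17.4 and 14.6 FPKM (-0.23). At the peptide exit, from which the new chain is passed to the inner membrane, the median of 6 genes was -0.36. MRPL24 had 94.4 and 58.7 FPKM (-0.68), MRPL17 had 34.3 and 24.2 FPKM (-0.48) and MRPL47 had 21.7 and 15.7 FPKM (-0.44). MRPL22 at 44.5 and 36.6 FPKM (-0.28) and MRPL23 at 57.1 and 48.5 FPKM (-0.23) were closer to 0. MRPL45, a membrane-facing protein of the exit, had 44.1 and 41.3 FPKM (-0.09), and was above 0 in both rescalings, at 0.02 and, without the mitochondrial genome, 0.07.

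Other large-subunit genes at or past 1.5-fold on the deposited scale were MRPL39, MRPL44, MRPL57, MRPL3 and MRPL19. After rescaling to the same total, only MRPL39 (-0.67) and MRPL44 (-0.65) of these still were. MRPL39 had 21.1 and 12 FPKM (-0.77). MRPL44, which carries a fold of the RNase III family, had 29.7 and 17.2 FPKM (-0.76). MRPL57 had 15.4 and 9.29 FPKM (-0.67), MRPL3, a core protein near the peptidyl transferase centre, had 73.1 and 45.7 FPKM (-0.67), and MRPL19 had 57.3 and 37.0 FPKM (-0.62). MRPL41, with 39.3 and 25.9 FPKM (-0.58), was just short of 1.5-fold. On the deposited scale 10 MRPL genes were past 1.5-fold, beside 9.83% of all genes 1.5-fold lower. Of these 10, 6 are among the 30 large-subunit genes with bacterial homologs and 4 among the 20 mitochondrion-specific members. That is the same share of each group. The 30 bacterial-homolog genes of the large subunit had a median of -0.38 and the 20 mitochondrion-specific members of it, which include MRPS18A and MRPS30 by their place in the ribosome, had a median of -0.42.

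Small-subunit genes were lower by similar amounts. All 29 MRPS symbols were below 0, with a median of -0.34, and the 48 MRPL symbols had a median of -0.40. The symbols do not match the subunits exactly: MRPS18A and MRPS30 belong to the large subunit and MRPS36 to neither. MRPS14 and MRPS21 were above 0 in both rescalings, and MRPS28 was as well without the mitochondrial genome. MRPS10 (chromosome 6, 42206801 to 42217865, minus strand) had 19.3 and 10.3 FPKM (-0.84) and MRPS25 had 15.2 and 9.56 FPKM (-0.62). These 2 were the MRPS genes past 1.5-fold on the deposited scale. After rescaling to the same total only MRPS10 was (-0.74), with MRPS25 at -0.52. MRPS6 (-0.57), MRPS9 (-0.56), MRPS26 (-0.55), MRPS17 (-0.54) and MRPS24 (-0.52) followed. MRPS12, a protein of the decoding centre, lay at -0.49. The 16 small-subunit genes with bacterial homologs had a median of -0.35, and so did the 10 mitochondrion-specific members. At the other end, MRPS14 had 8.99 and 8.60 FPKM (-0.06) and MRPS21 had 42.2 and 40.8 FPKM (-0.05). MRPS36, which is now assigned to the 2-oxoglutarate dehydrogenase complex rather than to the ribosome, had 19.8 and 17.2 FPKM (-0.19). Whether the subunits differ was not tested, since genes are not replicates.

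Humans have 3 paralogs of the bacterial protein S18, encoded by MRPS18A, MRPS18B and MRPS18C, which occupy different places in the ribosome. MRPS18A had 22.0 and 15.5 FPKM (-0.48), MRPS18B had 39.2 and 29.8 FPKM (-0.39), and MRPS18C had 19.4 and 15.1 FPKM (-0.34). MRPS18B was the most abundant of the 3 in both libraries, and each was at 70.4% to 77.9% of its control value.

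MRPL33 and MRPL14 were the only members with a higher value in the knockdown library on the deposited scale. MRPL33 (ENSG00000243147, chromosome 2, 27771717 to 27988087, plus strand), a small large-subunit protein, was the most abundant member, with 311 and 362 FPKM (0.22). Its annotated span runs into BABAM2, with which a read-through transcript shares exons. MRPL14 (chromosome 6, 44113454 to 44127457, minus strand) had 31.4 and 32.4 FPKM (0.04), nearly equal values. Close to them, MRPL30 had 18.5 and 17.8 FPKM (-0.05) and MRPL49 had 29.5 and 27.8 FPKM (-0.08). MRPL21 had 55.0 and 50.3 FPKM (-0.13), MRPS28 had 79.6 and 71.5 FPKM (-0.15) and MRPL13 had 42.3 and 37.7 FPKM (-0.16). Neither MRPL33 nor MRPL14 reached 1.5-fold.

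The summed values hide differences between transcripts in some members. Of 57 members with 2 or more listed transcripts, 10 had a transcript whose share of the gene's FPKM moved by 10 percentage points or more, beside 40.0% of all tested genes with 2 or more transcripts. In 2 of them, MRPL4 and MRPL55, the most abundant transcript differed between the libraries (13.1% of all such genes). Of the 175 member transcripts at 1 FPKM or more, 146 were below 0, against 53.2% of all transcripts at that level. By at least 2-fold, 16 were lower and 6 higher, against 8.24% and 8.63% of all transcripts. These FPKM were estimated per transcript, from reads that transcripts of a gene largely share, and the error of that division is unknown.

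MRPL53 had the largest move in transcript share among the members. ENST00000258105, of 3 exons, had 31.3 and 24.8 FPKM, and ENST00000409710, which lacks the middle exon, had 24.5 and 4.89 FPKM. The first exon also differs in length between them, 754 and 119 bases. The exon-containing share was 56.1% in control and 83.5% in knockdown cells. In MRPS25, the transcript with the 88-base exon, ENST00000253686, had 8.26 and 6.76 FPKM. ENST00000444840, which lacks that exon, had 6.99 and 2.80 FPKM, so that the exon-containing share was 54.2% and 70.7%. The last exon also differs in length in this pair, 4116 and 917 bases. MRPL33 also has an optional coding exon, but there the share was 70.6% and 69.2%, with 219 and 250 FPKM for ENST00000296102 and 91.4 and 111 FPKM for ENST00000379666. In MRPL53 and MRPS25 the form without the exon thus accounted for most of the lower gene value, whereas both forms of MRPL33 had higher values. Whether the exon or the other differences between the forms underlie these shares was not tested. The optional exons are shown in capitals between 15 bases of each neighbouring coding exon, from GENCODE release 29 transcripts on hg38, because these coding letters are in one transcript of each pair and missing from the other. They lie at chr2:74472358-74472470 (113 bases, minus strand), chr3:15053380-15053467 (88 bases, minus strand) and chr2:27774424-27774530 (107 bases, plus strand).
MRPL53 exon: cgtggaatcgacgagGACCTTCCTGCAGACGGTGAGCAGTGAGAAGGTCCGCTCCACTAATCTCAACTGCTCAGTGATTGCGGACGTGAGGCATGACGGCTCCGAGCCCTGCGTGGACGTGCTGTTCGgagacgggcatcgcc
MRPS25 exon: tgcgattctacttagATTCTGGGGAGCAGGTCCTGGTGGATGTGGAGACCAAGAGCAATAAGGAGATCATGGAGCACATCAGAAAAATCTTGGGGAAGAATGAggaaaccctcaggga
MRPL33 exon: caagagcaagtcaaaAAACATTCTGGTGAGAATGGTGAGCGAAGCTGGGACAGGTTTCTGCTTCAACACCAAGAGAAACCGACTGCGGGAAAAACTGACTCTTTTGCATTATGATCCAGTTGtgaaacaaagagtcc

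Several other pairs differ near the 5' end. MRPS33 has alternative first exons: ENST00000467334 had 41.3 and 24.6 FPKM and ENST00000496958 had 8.26 and 11.8 FPKM, so their shares were 72.3% and 59.3%, and 14.5% and 28.4%. The second exon also differs between these forms, with 199 and 242 bases, of which 185 and 215 are coding. In MRPL10, ENST00000414011, which has an extra exon of 98 bases, had 10.1 and 4.48 FPKM while ENST00000351111 had 19.4 and 20.4 FPKM. The last exon of this pair differs in length as well, 969 and 1187 bases. MRPL24 and MRPL4 each had a pair of transcripts with the same number of coding bases in every coding exon. In MRPL24 the first exons of the pair overlap but start at different bases. In MRPL4, ENST00000253099 has a first exon of 344 bases, where ENST00000307422 has separate exons of 46 and 165 bases. MRPL4, a bacterial homolog of the large subunit, had 28.6 and 21.9 FPKM (-0.37) as a gene. In MRPL24, ENST00000361531 had 63.2 and 33.1 FPKM and ENST00000368211 had 28.8 and 24.7 FPKM. In MRPL4, ENST00000253099 had 11.6 and 6.19 FPKM and ENST00000307422 had 11.4 and 11.1 FPKM. MRPL55 has 26 listed transcripts, of which ENST00000336520 had 7.96 and 9.74 FPKM and ENST00000348259 had 8.09 and 2.29 FPKM. With the highest transcript standing for each gene, MRPL55 and MRPL10 turned above 0 and 73 members were below it.

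**Figure D4:**
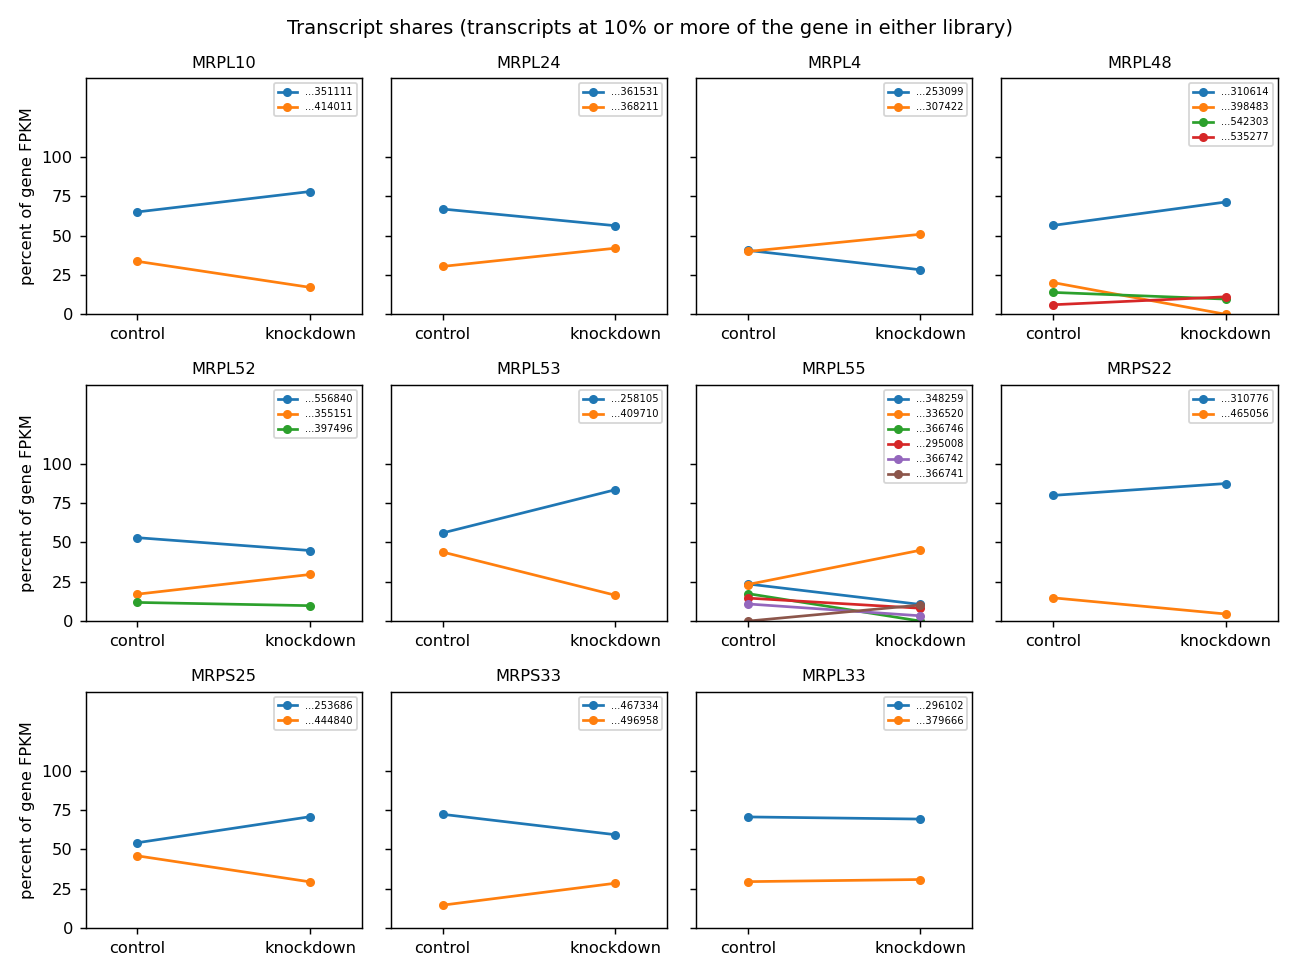
Percent of the gene's FPKM held by each transcript that reached 10% in either library, in the control and knockdown libraries, for the 10 members with a move of 10 points or more and for MRPL33 (legends give the last 6 digits of the transcript identifier). The exon-containing MRPL53 transcript goes from 56.1% to 83.5%, whereas the MRPL33 pair stays near 70% and 30%.

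Members also share letters at their starts. RefSeq windows of 250 bases before to 50 after the start (GRCh38.p14) were found for 68 members, using the first listed window of each gene. MRPL10, MRPL13, MRPL15, MRPL2, MRPL21, MRPL23, MRPL35, MRPS28 and MRPS36 had none. Searched on both strands, CCGGAAG, the core bound by ETS factors such as GABP, was held by 28 of 68 (41.2%), beside 19.9% of 9494 tested genes with a window and 10.3% of all windows of that length. AAGATGGC, a YY1 core, was held by 20 (29.4%), beside 5.61% and 2.89%. The core motif of nuclear respiratory factor NRF1 was held by 8 (11.8%), beside 12.1% and 5.78%. An ETS and a YY1 match occurred together in 8 members and overlapped in none. Members with and without a match differed alike: the median difference was -0.40 with and -0.40 without the ETS letters, -0.44 and -0.40 for the YY1 letters, and -0.45 and -0.40 for the NRF1 letters. A match is a description of the letters, not of binding. The stretches of 30 bases below show the first ETS and the first YY1 match, in capitals, 5′ to 3′ on the gene's strand, for members among the 10 lowest and 10 highest differences, because the same letters occur at each end. NRF1 matches are not printed; at these ends they were in MRPL57, MRPL14, MRPL30 and MRPL45. In MRPL30 and MRPS21 the ETS letters are on the opposite strand and read CTTCCGG. They lie at chr2:74472734-74472763 (MRPL53, minus), chr6:42217865-42217894 and chr6:42217834-42217863 (MRPS10, minus), chr3:131502985-131503014 (MRPL3, minus), chr17:38297170-38297199 (MRPL45, plus), chr2:99181028-99181057 (MRPL30, plus), chr1:150293839-150293868 (MRPS21, plus) and chr2:27771700-27771729 (MRPL33, plus).
MRPL53 ETS: gcagccggcggCCGGAAGtctatcccgcag
MRPS10 ETS: ccgctgtaaccCCGGAAGcaatcctgagag
MRPS10 YY1: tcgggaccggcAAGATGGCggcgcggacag
MRPL3 ETS: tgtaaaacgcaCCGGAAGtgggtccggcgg
MRPL45 YY1: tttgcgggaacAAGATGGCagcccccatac
MRPL30 ETS: ggtctgctgcgCTTCCGGgaagtggtcatg
MRPS21 ETS: cgtaatttccgCTTCCGGtagtgagaaccc
MRPL33 ETS: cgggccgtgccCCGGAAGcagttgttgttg

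Genes of factors that bind such letters, and of other regulators, were measured too. GABPA, NRF1 and MYC are named here after their values were seen. Among 10 listed regulators of mitochondrial biogenesis, 9 were at 1 FPKM or more. On the deposited scale 8 of these were below 0, beside 53.4% of all genes, with a median of -0.38. GABPA, the DNA-binding subunit of GABP, had 8.02 and 5.94 FPKM (-0.38), and its partner GABPB1 had 18.5 and 10.7 FPKM (-0.73). NRF1 had 8.83 and 6.72 FPKM (-0.35) and YY1 had 50.3 and 41.5 FPKM (-0.27). The orphan nuclear receptor gene ESRRA had 18.4 and 7.49 FPKM (-1.19), the only regulator past 2-fold, and MYC had 78.6 and 53.4 FPKM (-0.55). PPARGC1B, a coactivator, was at 1.87 and 2.21 FPKM (0.16).

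Many members start beside another gene. In GENCODE 29, 29 members have a protein-coding gene on the opposite strand whose start lies within 1000 bases of their own, and MRPL46 and MRPS11 are such a pair with each other. The 24 neighbours that were tested and are not members had a median of -0.42, and 18 were below 0, beside 53.4% of all genes. SKA3, a spindle gene next to MRPL57, had 10.6 and 3.96 FPKM (-1.22). The helicase gene TWNK beside MRPL43 had 12.2 and 6.81 FPKM (-0.76), and the mitochondrial seryl-tRNA synthetase gene SARS2 beside MRPS12 had 16.8 and 9.54 FPKM (-0.76). In the other direction, TMEM63B, the neighbour of MRPL14, had 11.6 and 17.9 FPKM (0.58), and GGA3, the neighbour of MRPS7, had 11.9 and 15.5 FPKM (0.36). The 24 members beside them had a median of -0.39, equal to that of all members.

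Most of the other measured genes of mitochondrial translation also lay below 0, on the deposited scale, which is the only scale used for the lists that follow. On that scale 53.4% of all genes tested were below 0, the share to set beside each count. Of the 7 ribosome subunits outside the plain MRPL and MRPS families or renamed into them, 6 were below 0 (median -0.50, with MRPL57 among them). PTCD3, a small-subunit protein, had 34.7 and 21.4 FPKM (-0.67), MRPL58, a peptidyl-tRNA hydrolase built into the large subunit, had 53.3 and 36.3 FPKM (-0.54), and DAP3, a GTP-binding small-subunit protein, had 55.2 and 60.9 FPKM (0.14). Of 27 assembly and ribosomal RNA modification genes, 23 were below 0 (median -0.30). MTERF4, which targets an RNA methyltransferase to the ribosome, had 18.3 and 9.32 FPKM (-0.90) and the methyltransferase gene MRM3 had 20.9 and 12.4 FPKM (-0.71), while YBEY had 21.5 and 23.9 FPKM (0.15) and TFB1M had 5.89 and 7.79 FPKM (0.35). Of 16 translation factors and mitochondrial messenger RNA binders, 15 were below 0 (median -0.33). The initiation factor gene MTIF3 had 14.5 and 6.14 FPKM (-1.12), the only one past 2-fold, and the release factor gene MTRF1 had 7.32 and 3.94 FPKM (-0.75). GFM2, for ribosome recycling, had 18.0 and 17.9 FPKM (-0.01), and GFM1, for elongation, had 34.7 and 35.3 FPKM (0.03). In mitochondrial transcription and RNA processing, 10 of 12 genes were below 0 (median -0.26), with PNPT1, a ribonuclease gene, at 18.8 and 10.3 FPKM (-0.81) and TRMT10C, of mitochondrial RNase P, at 28.6 and 17.4 FPKM (-0.68). The other RNase P genes, HSD17B10 (0.06) and KIAA0391 (0.06), were highest. Protein import into the matrix, by which members reach the mitochondrion, had 15 of 16 below 0 (median -0.35), from TIMM44 at 16.1 and 8.48 FPKM (-0.85) and TOMM40 at 123 and 77.6 FPKM (-0.66) to TIMM17B (-0.03) and PMPCB (0.03).

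In the cytosolic ribosome, 82 of 83 genes were below 0 (median -0.23), beside 53.4% of all genes. The quartiles of that list, -0.32 and -0.18, lay closer together than those of the members, -0.51 and -0.25. The 78 nuclear respiratory chain subunits had a median of -0.28, with quartiles of -0.41 and -0.13 and 71 below 0. Whether the members' median differs from that of either list was not tested. The 13 proteins of the mitochondrial genome, which these ribosomes translate, had a median of 0.07 with 2 below 0 as messenger RNA, from MT-ND1 (-0.04) to MT-ND5 at 2503 and 3218 FPKM (0.36). Protein was not measured.

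**Figure D5:**
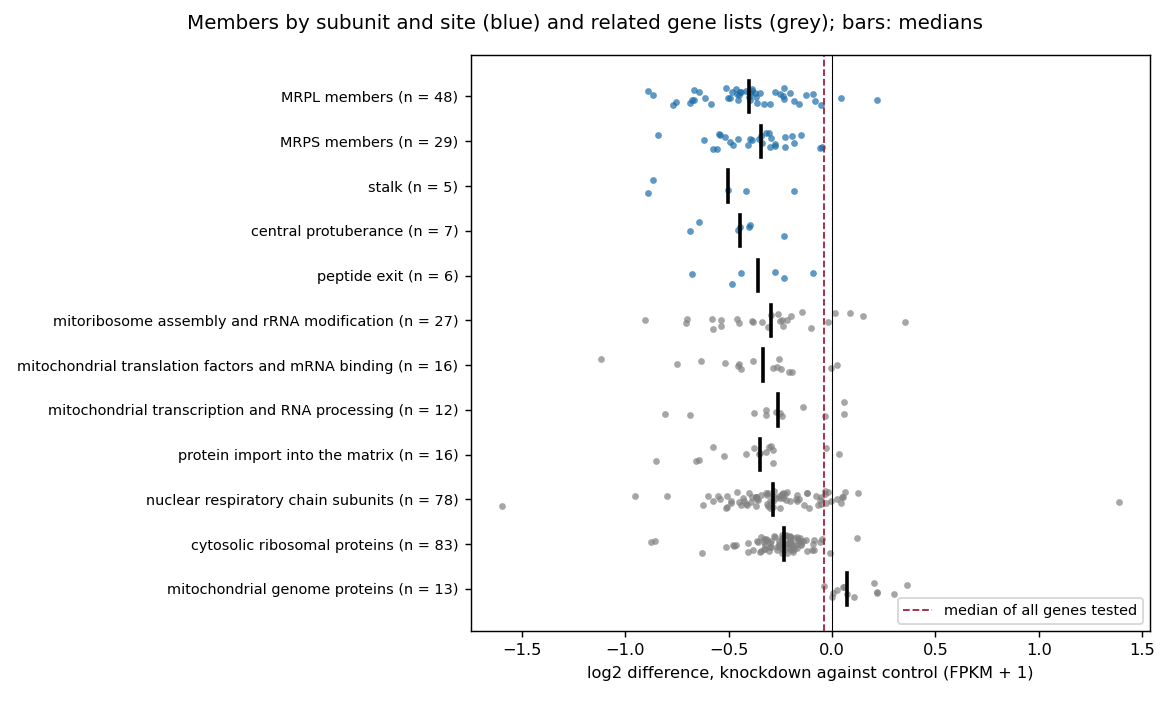
Log2 difference between knockdown and control for each gene of the MRPL symbols, MRPS symbols and structural sites (blue) and of related lists (grey), with the median of each list as a bar and that of all genes as a dashed line. The medians lie between -0.51 (stalk) and -0.23 (cytosolic ribosomal proteins), except for the mitochondrial genome proteins at 0.07.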

How the data were processed

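The FPKM values are as deposited by the authors, 1 per protein-coding Ensembl transcript and library. The labels' protocols give Trizol extraction and an Illumina TruSeq kit. The tools CASAVA (1.8.2), TopHat and Cufflinks and the build hg38 appear in the submitters' processing notes; their roles, the annotation and any strand setting are not given in the sources used here. Depth is unknown, so no counting interval is given.

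FPKM was summed per symbol. Symbols reaching 1 FPKM in at least 1 A549 column were tested, with a pseudocount of 1 (Python 3.11.15, pandas 2.3.3, numpy 2.4.6), and the script was tested on simulated data. The bare A549 column was taken as control and the numbered one as knockdown. The 3 value columns of the other table matched no label and were not used, only its symbols. Any member could be named. Named with values in both libraries were at least the 10 highest and lowest differences, the 5 highest and lowest control levels, members past 1.5-fold, in a structural group or with a changed main transcript, and the 2 highest and lowest genes of most other lists. Members and lists were chosen with earlier results of these data known, and motifs, exons and neighbouring genes after the values were seen.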

Additional observations from a re-analysis of the deposited data

How the results depend on the processing

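The members' median of -0.39 was -0.40 with a pseudocount of 0.1 FPKM, -0.29 after rescaling to the same total, -0.35 after centring on the median of all genes, -0.24 without the mitochondrial genome and -0.37 when the top transcript stood for the gene. The median was -0.39 with a minimum of 5 or 10 FPKM or with no filter. These filters kept 77, 76 and 77 members, so that median could hardly change and is no check. The median of all genes did change, to -0.08 and -0.10 at the 2 minimums and 0 with no filter. The members' median minus that of all genes was then -0.31, -0.29 and -0.39, beside -0.35 as reported. The 12 members 1.5-fold lower, which replace 0 at 2-fold, became 5 in either rescaling and were 10 to 14 otherwise. Over all genes, the share 1.5-fold lower ran from 5.64% to 12.2% across the settings. No member was 2-fold lower, or 1.5-fold higher, in any of these 8 settings. With the top transcript, the MRPL55 difference was 0.24 instead of -0.64. In 2 subsets chosen after seeing the data, the 61 members sharing no exon on their strand had a median of -0.39 (60 below 0), and the 43 with no named pseudogene had -0.40 (41 below 0). H1299 was not run, as its columns match no label. No library could be left out, and no paired analysis was possible because each group has 1 library.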
